A study of Mus musculus with 6 samples.

Results

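Cytosolic ribosomal protein genes encode the protein components of the ribosome that works in the cytosol. They were taken from the deposited table by symbol. A gene was a member if its symbol was Rpl, Rplp or Rps followed by a number and any further letters or digits, or was Rpsa or Fau. Symbols beginning Rps6k (genes named as ribosomal protein S6 kinases, 10 rows) and symbols containing -ps (pseudogenes, 7 rows) were left out. This gave 89 of 18058 genes, of which 53 belong to the large subunit and 35 to the small subunit. Of the 89, 73 encode core proteins, 3 encode proteins of the stalk, 2 encode a ribosomal protein fused to ubiquitin or a ubiquitin-like protein, 10 are paralogs or copies of another member, and Rps19bp1, an Rps19 binding protein, matched by its name without encoding a ribosomal protein. Rack1, whose product also belongs to the ribosome, falls outside the naming rule.

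The libraries came from whole brainstems of mice aged 1 month, with 3 wild-type (WT) C57BL/6J animals and 3 Rag1-/- animals (B6.129S7-Rag1tm1Mom/J), 1 library per animal. The study used animals of both sexes, and the sex of each library is not given in the sources used here. Rag1-/- mice carry a germline null allele of a subunit of the V(D)J recombinase in every cell and lack mature T and B cells. The study used the comparison to look for transcripts that differ between brainstems with and without these lymphocytes. Values are read counts per gene scaled to library size (CPM).

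Each ribosome holds 1 copy of most of its proteins, so a cell has to make the proteins of both subunits in similar numbers. Most of their mRNAs begin with a 5′ terminal oligopyrimidine (TOP) tract, a C followed by a run of C and T bases, through which mTOR signalling and the RNA-binding protein LARP1 control their translation together. Mammalian genomes also hold many processed copies of these short, abundant mRNAs, and reads from a near-identical copy and from its parent gene are hard to tell apart.

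Start sites are shown first because the TOP tract is the sequence these genes are known for. The first 4 lines were chosen as starts that carry it, which most of the members' annotated starts did not. Each line gives 10 bases before and 20 bases from the annotated transcription start, from RefSeq on GRCm38.p6, with the pyrimidine tract in capitals. Rps6, whose product is the substrate of the S6 kinases, lies at chr4:86857348-86857377 on the minus strand, Rpl15 at chr14:18270967-18270996 on the minus strand, Fau at chr19:6057937-6057966 on the plus strand and Rps27 at chr3:90213629-90213658 on the minus strand. Rpl19, at chr11:98026700-98026729 on the plus strand, has no such tract at this annotated start and is shown for contrast.
Rps6: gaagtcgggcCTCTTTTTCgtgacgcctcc
Rpl15: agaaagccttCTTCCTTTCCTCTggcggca
Fau: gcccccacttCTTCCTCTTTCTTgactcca
Rps27: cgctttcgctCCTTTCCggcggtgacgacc
Rpl19: aaacgccctcactgcgcatgtgcgccgcgg

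Promoter sequences were on hand for 68 of the 89 genes, with 80 annotated starts. The tract was searched for on the transcribed strand only, as a C at the annotated start followed by at least 4 bases that are each C or T. It was present at 16 of the 80 starts (20%) and at 2.46% of all other promoters in the same set. A tract beginning within 5 bases of the annotated start was present at 42.5% of the members' starts and at 18.3% of the others. Annotated starts can lie some bases away from the ones used in this tissue, so a missing match says only that these letters are not in this window.

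The second group of sequences shows how little separates some members from their copies. Bases are counted from 1 at the A of the start codon of the member's coding sequence (GENCODE vM21, GRCm38), the lines for Rpl37, Rpl34 and Rpl30 give 40 coding bases around the first difference, and capitals mark the bases that differ. Rpl37 and its retrotransposed copy Rpl37rt differed at 1 of 294 coding bases (G249A), Rpl34 and Rpl34-ps1 at 2 of 354 (T132C and C318G), and Rpl30 and Gm12191 at 1 of 348 (G96A).
Rpl37: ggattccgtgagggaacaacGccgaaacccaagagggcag
Rpl37rt: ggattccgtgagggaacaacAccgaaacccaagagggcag
Rpl34: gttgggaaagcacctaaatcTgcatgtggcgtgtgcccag
Rpl34-ps1: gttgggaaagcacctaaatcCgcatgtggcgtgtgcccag
Rpl30: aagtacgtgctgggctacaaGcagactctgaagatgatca
Gm12191: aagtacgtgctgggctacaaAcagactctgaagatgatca

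Rps27 shows the contrast between a copy and a diverged paralog over its first 60 coding bases. Rps27rt was identical to Rps27 over all 255 coding bases, whereas Rps27l, a paralog with its own exons and introns, differed at 61 of 255 bases and at 18 of the 60 shown.
Rps27: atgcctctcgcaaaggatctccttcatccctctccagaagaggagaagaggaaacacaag
Rps27rt: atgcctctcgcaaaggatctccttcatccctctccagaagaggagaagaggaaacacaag
Rps27l: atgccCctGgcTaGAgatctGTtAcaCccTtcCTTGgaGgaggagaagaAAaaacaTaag

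Some facts of the 6 libraries bear on every value below. The size of the smallest steps between values put the depth at about 31600000 to 46400000 reads per library, and 3 reads corresponded to 0.0646 to 0.0950 CPM. Rag1 itself gave 0.236, 0.388 and 0.115 CPM in WT but 2.60, 4.02 and 2.90 CPM where the label was Rag1-/-, which is the opposite of a loss of the transcript. A disrupted gene can still be transcribed and the table does not show which part of Rag1 was counted, so this does not check the labels, and directions below rest on the labels alone. In what follows, "those labelled Rag1-/-" are the 3 libraries with that label, and a Rag1-/- library is a library so labelled. Xist, the RNA of the inactive X chromosome, was at 172 and 177 CPM in WT libraries 1 and 2 and at most 2.93 CPM in the other 4. The summed CPM of 5 oligodendrocyte markers ranged from 17230 to 20282 in WT and from 22379 to 23917 in those labelled Rag1-/-, without overlap. That of 5 astrocyte markers ranged from 2632 to 2815 in WT and from 2824 to 2906 in the other group, also without overlap. That of 5 red blood cell markers ran from 646 CPM in WT library 1 to 1880 CPM in WT library 3. The sum of the pituitary markers, 4 of 5 of which were in the table, was 654 CPM in WT library 3, 56.5 CPM in WT library 2 and at most 4.91 CPM elsewhere. The sum of 5 choroid plexus markers was 958 and 1214 CPM in WT libraries 1 and 2 and 474 to 618 CPM elsewhere, and that of 5 hindbrain markers, mostly Hox genes, was 9.35 CPM in Rag1-/- library 2 and 22 to 57.2 CPM elsewhere. The part of these tissue differences in the ribosomal protein values was not tested, and in whole tissue fewer cells of a type and less RNA per cell cannot be told apart.

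Levels of the 78 core, stalk and ubiquitin fusion genes were compared per kilobase of coding sequence, because transcript ends differ between annotations. Means over the 6 libraries ran from 44.4 CPM per kb for Rpl34 to 3931 CPM per kb for Rpl41, which encodes a peptide so short that its untranslated ends make up most of the mRNA and raise its value on this scale. The median was 216 CPM per kb (n = 46) for the large subunit and 253 (n = 32) for the small subunit, and the lower and upper quartiles over all 78 genes were 158 and 298 CPM per kb. Below Rpl41, the highest core genes were Rps29 at 1387 ± 69.7 CPM per kb (SD, n = 6), Rps15 at 672 ± 29.2, Rps24 at 530 ± 30.2 and Rpl38 at 501 ± 26.4. Rps29 and Rps15 each exceeded the next core gene by more than its own SD, whereas Rps24 and Rpl38 differed by less than the SD of Rps24. The stalk gene Rplp1, at 1187 ± 50.8, lay between Rps29 and Rps15. This order also depends on coding length, which is 171 bases for Rps29 and 213 for Rpl38. By CPM alone, Rps29 ranked 8, Rps15 7, Rps24 9 and Rpl38 39 of the 78 genes.

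The lowest core genes per kb were Rpl34 at 44.4 ± 4.12, Rpl30 at 47.4 ± 2.51, Rps2 at 57.0 ± 3.32, Rpl21 at 63.8 ± 4.31 and Rpl26 at 65.7 ± 3.70 CPM per kb (SD, n = 6). Rpl34 and Rpl30 did not differ beyond their spread, nor did Rpl21 and Rpl26. A copy row is a second row of the table whose transcript matched at least 90% of a member's coding sequence at an identity of at least 95%, or, for Rplp2-ps1, one recognised by its name, since the matching sequence was found in the transcript of a row that spans it, Wdr89. There were 17 such rows for 16 members. They were found from the low end, Rpl34 and Rpl30, up to Rps26 at 391 CPM per kb, whereas Rps2 had none. The copy rows of Rpl29 and Rps23 averaged 0.0379 and 0.0375 CPM, so that these 2 members held at least 99.7 and 99.8% of their pairs. Of the 8 core, stalk and ubiquitin fusion genes with a mean under 45 CPM, 7 had a copy row, Rpl29 among them, and the coding sequence of the eighth, Rpl21, had a match at 98.55% identity inside the unrelated row BC004004. The median was 153 CPM per kb for the 15 genes with copy rows and 243 for the 63 without, among which Rpl21 was counted. When each gene was summed with its copy rows, the large-subunit median moved to 246 and the small-subunit median to 269 CPM per kb.

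**Figure D1:**
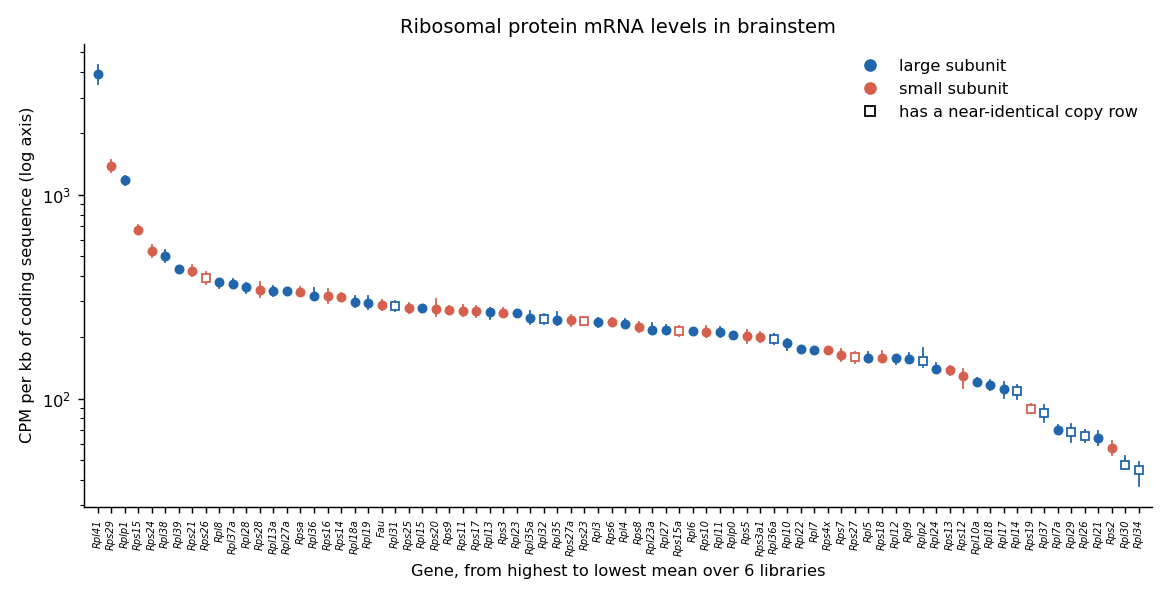
Mean CPM per kb of coding sequence over the 6 libraries for the 78 core, stalk and ubiquitin fusion genes, ordered from highest to lowest on a log axis, with bars from the lowest to the highest library. Open squares mark genes with a near-identical copy row, and they include the 2 lowest genes, Rpl30 and Rpl34.

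The stalk genes encode P0, P1 and P2, which recruit the elongation factors to the large subunit, P1 and P2 as pairs. Rplp1 was the member with the highest CPM at 408, 386 and 425 in WT and 417, 429 and 392 in those labelled Rag1-/-. Rplp0 was at 190, 195 and 196 CPM in WT and at 202, 202 and 191 CPM in the other group. Rplp2 was at 55.0, 50.9 and 61.8 CPM in WT and at 51.9, 49.7 and 49.5 CPM in those labelled Rag1-/-, with the groups overlapping. Its row held 29.9 to 32.0% of the summed CPM of Rplp2 and Rplp2-ps1. The ubiquitin fusion genes Rps27a and Fau, which release a small-subunit protein on cleavage, lay close together at 106 to 121 and 109 to 122 CPM over all 6 libraries. The members on the X chromosome were Rpl10 at 112 to 126 CPM, Rps4x at 132 to 142, Rpl36a at 59.6 to 66.3 and Rpl39 at 65.5 to 69.8 over all 6 libraries. Both WT libraries with high Xist lay inside the range of the other 4 for Rpl10 and Rps4x, while WT library 1 was the lowest of all for Rpl36a and the highest for Rpl39.

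Paralogs give some ribosomal proteins a second version. Rpl22l1 took 17.3 to 19.2% of the summed CPM of Rpl22 and Rpl22l1, Rps27l 16.5 to 18.1% of the pair with Rps27, and Rpl7l1 20.3 to 21.5% of the pair with Rpl7. Rps4l, which RefSeq annotates as a transcribed pseudogene rather than a protein-coding gene, took 16.0 to 17.9% of the pair with Rps4x. Rpl36al, an autosomal paralog of the X-linked Rpl36a that differs at 39 of 321 coding bases, took 48.4 to 51.1%. For each of these 5 shares the WT range and the range of those labelled Rag1-/- overlapped. Rpl3l, known as the version of striated muscle, was at 0.307, 0.323 and 0.0576 CPM in WT and at 0.520, 0.285 and 0.171 CPM in those labelled Rag1-/-, where 1 read is worth 0.0215 to 0.0317 CPM. Rpl39l, known from the testis, was at 0.0286 to 0.0951 CPM, which is 1 to 3 reads per library, and it was the only member below the filter of a mean of 0.1 CPM. The pair with Rpl39 was not compared further at this depth. Rpl22l1 also has a copy row, Gm15421, at 9.87 to 12.8 CPM, and the shares of Rps27 and Rpl22l1 rest on how reads of the copies were assigned.

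The question of the rule was whether the subunits move together between libraries and between genotypes. Summed over all members, the large subunit stood at 5854, 5818 and 6126 CPM in WT and at 6240, 6221 and 5771 CPM in those labelled Rag1-/-. The small subunit stood at 4031, 4036 and 4179 CPM in WT and at 4282, 4269 and 3941 CPM in those labelled Rag1-/-. For both, libraries 1 and 2 labelled Rag1-/- were the highest and library 3 of the same group the lowest, so the groups overlapped.

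The 2 sums kept nearly the same proportion while each of them moved. The highest large-subunit sum exceeded the lowest by 8.13% and the highest small-subunit sum exceeded the lowest by 8.65%, whereas their ratio ran from 1.44 to 1.47, a range of 1.67%. The ratio was 1.453 ± 0.0121 in WT and 1.460 ± 0.00401 in those labelled Rag1-/- (SD, n = 3 each), a difference of 0.00664 that is smaller than the SD in WT but larger than that in the other group. That difference was 0.000908 to 0.0129 when 1 library was left out. The sum of both subunits was 10014 ± 252 CPM in WT and 10241 ± 459 CPM in those labelled Rag1-/- (SD, n = 3 each), a difference smaller than the SD of either group on this scale. All members together made up 1.22 to 1.33% of the summed table. The 2.27% by which the mean of those labelled Rag1-/- lay above WT became 4.91% without library 3 of that group and 0.863% without its library 1. Rescaled by median-of-ratios size factors, the sum was 9853 ± 228 in WT and 10392 ± 477 in those labelled Rag1-/- (SD, n = 3 each), 5.48% above WT and further apart than the SD of either group, with library 3 at 9847, inside the WT range of 9718 to 10116.

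**Figure D2:**
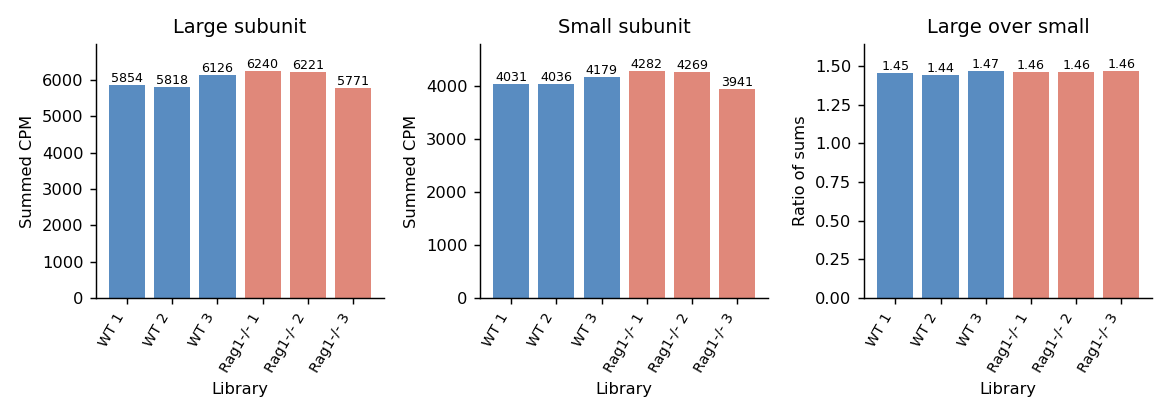
Summed CPM of the 53 large-subunit members (left) and the 35 small-subunit members (middle), and the ratio of the 2 sums (right), as 1 bar per library from 0, WT in blue and Rag1-/- in red. The sums were highest in Rag1-/- libraries 1 and 2 and lowest in Rag1-/- library 3, and the ratio stayed between 1.44 and 1.47.

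The extremes of single genes were spread more widely. Of the 78 core, stalk and ubiquitin fusion genes, 38 had their highest value in Rag1-/- library 1, 17 in Rag1-/- library 2 and 17 in WT library 3, and 42 had their lowest value in Rag1-/- library 3, 19 in WT library 2 and 14 in WT library 1. Over all 16762 genes tested, 13.1% were highest in Rag1-/- library 1 and 28.7% in WT library 3, while 17.1% were lowest in Rag1-/- library 3, 12.4% in WT library 2 and 10.6% in WT library 1. The median deviation from each gene's own mean, on the log2(CPM + 0.1) scale, was -0.04, -0.04 and 0.02 in the WT libraries for the large subunit and -0.03, -0.04 and 0.01 for the small subunit. In those labelled Rag1-/- it was 0.06, 0.04 and -0.06 for the large subunit and 0.07, 0.06 and -0.07 for the small subunit. The 2 subunits thus had the same sign in every library, and the gap between libraries 1 and 3 of the group labelled Rag1-/- was wider than the median difference between the genotypes given below.

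The genes varied unequally. Rpl7, a core protein of the large subunit, had the smallest SD over the 6 libraries, 0.02 on the log2 scale, at 138 to 143 CPM. The core genes with the largest SD were Rpl34 at 0.14, Rps12 at 0.13, Rpl41 at 0.13, Rpl29 at 0.12 and Rpl37 at 0.11. Rps12, a small-subunit protein, was at 48.3, 48.9 and 53.7 CPM in WT and at 56.0, 55.9 and 44.7 CPM in those labelled Rag1-/-, with libraries 1 and 2 labelled Rag1-/- the highest and library 3 the lowest, as for the subunit sums, on a wider scale.

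**Figure D3:**
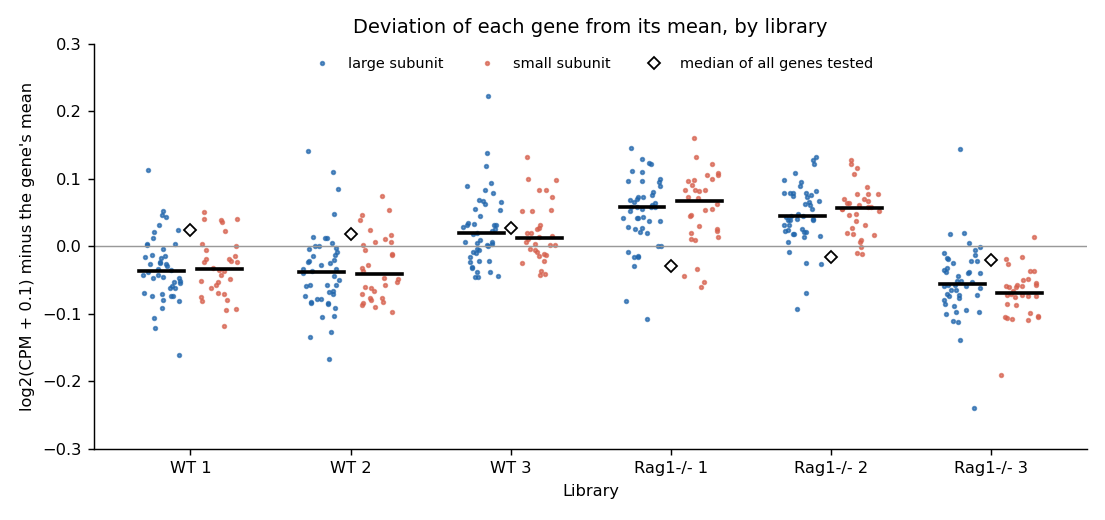
Deviation of each of the 78 core, stalk and ubiquitin fusion genes from its mean over the 6 libraries, on the log2(CPM + 0.1) scale, by library and subunit, with black bars at the medians and open diamonds at the median of all 16762 genes tested. Both subunits lie above 0 in Rag1-/- libraries 1 and 2 and below 0 in Rag1-/- library 3.

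Between genotypes, no member passed a Benjamini-Hochberg adjusted p of 0.05 in limma-trend, where 8 of the 16762 genes tested (0.0477%) did. The smallest adjusted p among the 88 members tested was 0.354, for Rpl21. At an unadjusted p of at most 0.05, which is the study's own cut on p, 8 members (9.09%) were higher and 2 (2.27%) were lower in those labelled Rag1-/-, against 2.27% higher and 9.29% lower of all genes tested. Of the 8, 6 belong to the large subunit and 2 to the small subunit. The log2 fold change (Rag1-/- minus WT) was above 0 for 66 of the 88 members (75%) and for 32.3% of all genes tested. Its median was 0.04 for the large subunit (n = 52), 0.03 for the small subunit (n = 35) and -0.05 for all genes tested. Of 1290 genes outside the members with a reference transcript under 1000 bases, 52.0% had a fold change above 0, and their median was 0.01. The libraries of the groups did not overlap for 4 members higher (Rpl21, Rpl19, Rpl18 and Rpl27) and 2 lower (Rpl37 and Rpl34), against 3.98% higher and 14.4% lower of all genes. An exact permutation test of 3 against 3 libraries cannot give a two-sided p below 0.10, which these 6 members reached.

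These counts moved when single libraries were left out and with the scaling. The 8 higher members became 21 without Rag1-/- library 3 and 1 without any one of Rag1-/- library 1, Rag1-/- library 2, WT library 1 or WT library 2. The 21 are 23.9% of the members, against 2.29% higher of all genes in that fit. The single member is 1.14%, which is below the share of all genes in each of those 4 fits (1.45, 2.04, 1.70 and 2.35%), so the excess of higher calls was lost there. In the same 4 fits 59.1 to 68.2% of the members had a fold change above 0, against 33.1 to 34.5% of all genes. Each fit of this kind has 1 library fewer. When any 1 library was left out, the log2 fold changes of the 8 members stayed between 0.081 (Rpl36al) and 0.23 (Rpl29). A term for libraries with Xist above 100 CPM takes up WT libraries 1 and 2, so that its genotype value sets the 3 libraries labelled Rag1-/- against WT library 3 alone, the WT library with the high pituitary markers and the highest subunit sums of its group. It cannot tell an adjustment for Xist from the values of that 1 library, which is assumed to vary like the others. With this term 1 member (1.14%) was higher, Rpl3l at a mean of 0.277 CPM, and 3 (3.41%) were lower, against 3.96% higher and 12.3% lower of all genes. There the share of members with a fold change above 0 went from 75 to 54.5% (37.4% of all genes), and the medians went to 0.011 for the large and 0.0026 for the small subunit. Of the members past the unadjusted p, 8 of 10 were higher on CPM, and after median-of-ratios rescaling 23 were (26.1%, against 4.98% of all genes), all of them higher, while the share of higher calls among all genes went from 19.6% to 54.5%. Quantile normalization gave 18 members (20.5%, against 5.10% of all genes), all higher, and 57.2% for all genes.

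**Figure D4:**
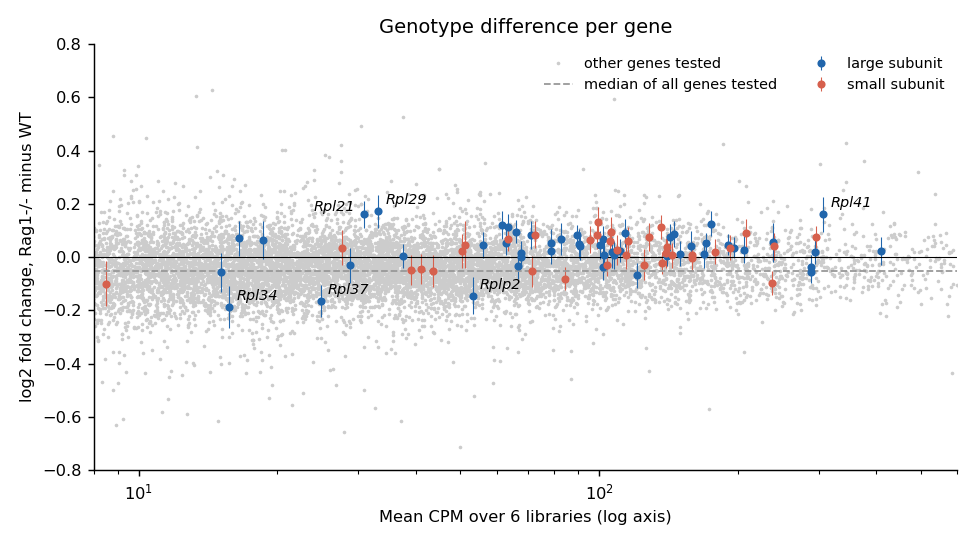
Log2 fold change (Rag1-/- minus WT) against mean CPM over the 6 libraries on a log axis, for large-subunit members (blue) and small-subunit members (red) with bars of 1 SE, other genes tested in grey, and the median of all genes as a dashed line. The axes leave out genes with a mean under 8 or above 600 CPM or a fold change beyond 0.8 in size, Rpl3l among them, and the members lie between -0.19 and 0.17.

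Among the large-subunit genes, Rpl21 had the smallest p of any member. Its CPM was 28.9, 28.6 and 29.8 in WT and 33.6, 32.9 and 31.2 in those labelled Rag1-/-, so that the groups did not overlap (log2 fold change 0.16 ± 0.05, SE, adjusted p = 0.354, limma-trend). The unrelated row BC004004, which holds the 98.55% match to the Rpl21 coding sequence, averaged 44.6 CPM. Rpl21 held 39.5 to 42.6% of the summed CPM of both rows, which were not summed in any fit. The part of the BC004004 row that comes from the match was not tested. Rpl19 was at 165, 163 and 174 CPM in WT and at 189, 185 and 175 CPM in the other group, with the nearest libraries at 174.2 and 174.7 (0.13 ± 0.05, adjusted p = 0.384). Rpl29 was at 29.6, 30.3 and 33.7 CPM in WT and at 36.2, 35.6 and 33.5 CPM in those labelled Rag1-/- (0.17 ± 0.06, adjusted p = 0.382). WT library 3 and Rag1-/- library 3 overlapped there.

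Rpl41 was at 284, 272 and 312 CPM in WT and at 338, 335 and 297 CPM in those labelled Rag1-/- (0.16 ± 0.07, adjusted p = 0.423). Rpl17 ranged from 56.1 to 61.8 CPM in WT and from 61.8 to 67.0 CPM in the other group (0.12, adjusted p = 0.429), and the paralog Rpl36al at 58.2 to 63.5 and 63.2 to 67.4 CPM (0.11, adjusted p = 0.431). In the small subunit, Rps26 was at 128, 127 and 138 CPM in WT and at 146, 142 and 137 CPM in those labelled Rag1-/- (0.11 ± 0.05, adjusted p = 0.416). Rps20 was at 91.4, 94.4 and 98.4 CPM in WT and at 111, 104 and 97.4 CPM in the other group (0.13 ± 0.06, adjusted p = 0.417). In each of these 5 genes the libraries overlapped, with Rag1-/- library 3 the lowest of its group.

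Below 0, the largest differences among members averaging 1 CPM or more were those of Rpl34, Rpl37, Rplp2, Rps27l and Rps29. Rpl34 was at 16.0, 16.9 and 17.2 CPM in WT and at 16.0, 14.9 and 13.2 CPM in those labelled Rag1-/- (-0.19 ± 0.08, SE, adjusted p = 0.426, limma-trend). Rpl37 was at 26.8, 27.4 and 24.7 CPM in WT and at 23.5, 24.4 and 22.5 CPM in the other group (-0.16 ± 0.06, adjusted p = 0.382). Neither group pair overlapped for these 2 genes, although for Rpl34 the nearest libraries were at 16.00 and 15.98 CPM. Rps29 ranged from 238 to 254 CPM in WT and from 220 to 240 CPM in those labelled Rag1-/- (-0.10, adjusted p = 0.462), Rplp2 gave -0.15 (adjusted p = 0.462) and Rps27l -0.10 (adjusted p = 0.670).

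Rpl34 and Rpl37 are both the smaller row of a pair with a near-identical copy. Rpl37 held 8.37 to 11.2% of the summed CPM of Rpl37 and Rpl37rt, the copy on chromosome 5, which ranged from 218 to 254 CPM in WT and from 222 to 257 CPM in those labelled Rag1-/-. Rpl34 held 15.9 to 20.1% of the sum with Rpl34-ps1, whose row ranged from 67.4 to 72.7 CPM in WT and from 69.6 to 78.9 CPM in those labelled Rag1-/-. The pair sums did not keep the lower direction. Rpl37 with Rpl37rt gave 261 ± 16.9 CPM in WT and 267 ± 19.96 CPM in those labelled Rag1-/- (SD, n = 3 each, log2 fold change 0.03 ± 0.07, SE), and Rpl34 with Rpl34-ps1 at 86.9 ± 2.89 and 90.5 ± 6.64 CPM (0.06 ± 0.06). With copy rows summed, 8 members (9.41%, against 2.26% of all genes) were higher and 0 (against 9.29%) lower at p of at most 0.05 before adjustment (limma-trend), and 0 passed the adjusted p. How reads that match both rows were counted is not stated in the sources used here.

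The table also placed some copies on the member's own locus. The rows of Rps27rt, Rpl34-ps1, Gm15772 (a copy of Rpl26) and Gm12191 (a copy of Rpl30) had coordinates inside or next to those of their member on mm10, with Rps27rt at chr3:90212667-90213647 and Rps27 at chr3:90212667-90213648, whereas RefSeq on GRCm38.p6 places Rps27rt on chromosome 9, Rpl34-ps1 on chromosome 6, Gm15772 on chromosome 5 and Gm12191 on chromosome 11. The Rps27 row held 48.1 to 49.3% of its pair in every library, close to an even split of 2 identical coding sequences. Rpl26 held 13.9 to 16.7% of the sum with Gm15772 and Rpl30 23.5 to 29.3% of the sum with Gm12191, the highest of these in Rag1-/- library 3. For these 4 genes the row of the member alone is therefore an uncertain measure of its mRNA.

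**Figure D5:**
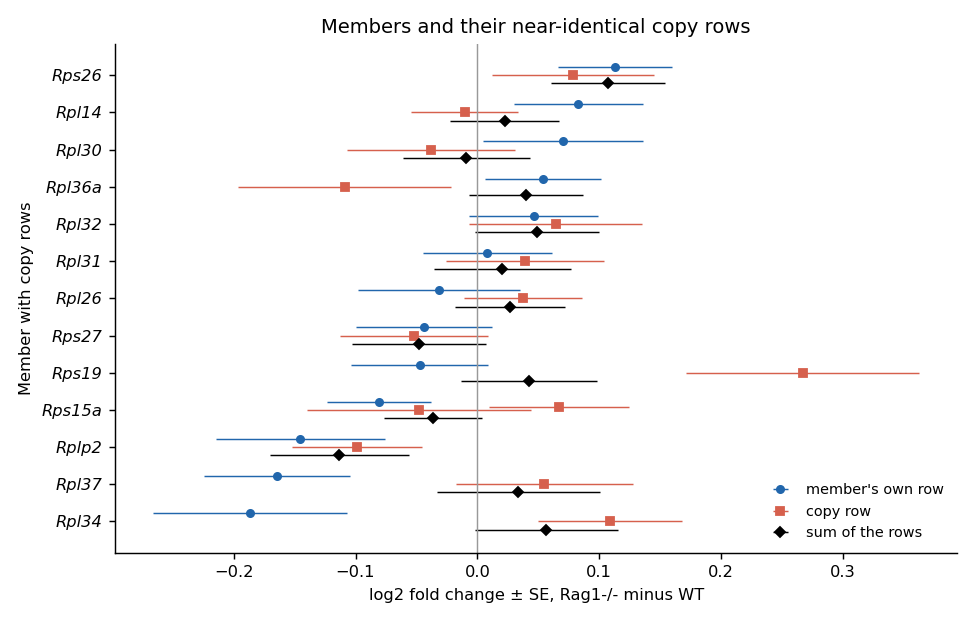
Log2 fold change (Rag1-/- minus WT) with bars of 1 SE for 13 members, their copy rows and the sum of both, ordered by the member's own value. For Rpl37 and Rpl34 the member's row lies below 0 and the copy row and the sum above 0, and for Rplp2 all 3 lie below 0.

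Copies differed from their members in other pairs too, in either direction. Rps19-ps3 was higher in those labelled Rag1-/- at an unadjusted p (0.27 ± 0.10, SE, adjusted p = 0.374, limma-trend) beside -0.05 ± 0.06 for Rps19, which is the gene most often mutated in Diamond-Blackfan anemia, and the sum of both gave 0.04 ± 0.06. Rplp2 and Rplp2-ps1 gave -0.15 and -0.10, and their sum -0.11 ± 0.06 (adjusted p = 0.478). Rps26, mutated in the same anemia, kept its value when summed with Gm6654 (0.11 ± 0.05, adjusted p = 0.431). Of the 15 core and stalk genes with copy rows, 7 had a fold change above 0, against 53 of the 63 without, among which Rpl21 was counted.

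Genes that make, load and regulate ribosomes were set beside the members as lists chosen by function. The shares of all genes tested to set beside the counts at an unadjusted p of at most 0.05 are again 2.27% higher and 9.29% lower, with a median of -0.05. Of 17 translation factors and other mRNAs known to carry a TOP tract, 0 were higher and 1, Hnrnpa1, was lower at an unadjusted p of at most 0.05 (96.4 to 102 CPM in those labelled Rag1-/- and 106 to 108 CPM in WT, log2 fold change -0.11, adjusted p = 0.375, limma-trend), and the median was 0.03. Pabpc1, the poly(A) binding protein, was next by p (0.07, adjusted p = 0.565). By library this list had median deviations of 0.03 and 0.04 in Rag1-/- libraries 1 and 2 and -0.02 in library 3, the signs of the ribosomal proteins at a smaller size. Rack1, a protein of the small subunit, was at 152 to 160 CPM in WT and at 162, 167 and 153 CPM in the other group.

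Of 35 ribosome biogenesis and rRNA synthesis genes, 0 were higher and 1, Polr1a, the catalytic subunit of RNA polymerase I, was lower (27.9 to 31.2 CPM in WT, 25.9 to 27.4 CPM in those labelled Rag1-/-, -0.13, adjusted p = 0.429). Noc4l, a nucleolar assembly factor, was next by p (-0.18, adjusted p = 0.467), and the median of the list was -0.04, or 0.0046 after median-of-ratios rescaling and 0.0065 after quantile normalization. Of 20 regulators of ribosomal protein synthesis, 0 were higher and 4 were lower, and the median was -0.10, beside 9.29% lower and a median of -0.05 over all genes tested. Leaving out 1 library gave 2 to 4 lower. The 4 were the kinase gene Mtor, Rptor, which encodes its partner in mTOR complex 1, Tsc1, which encodes an inhibitor of that complex, and Rps6ka2, a kinase gene whose symbol begins Rps6k. Rptor was at 92.5, 92.9 and 94.1 CPM in WT and at 83.5, 85.1 and 84.3 CPM in those labelled Rag1-/- (-0.14 ± 0.04, SE, adjusted p = 0.319, limma-trend), and Mtor at 108 to 113 and 99.7 to 103 CPM (-0.12 ± 0.04, adjusted p = 0.359). None of the genes in these 3 lists passed the adjusted p in limma-trend. After median-of-ratios rescaling, 1 of the 20 regulators was lower and 1 higher, where 4.15% of all genes were lower and 4.98% higher.

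Other abundant nuclear-encoded complexes lay on the same side of the genome-wide median as the cytosolic ribosome. Mitochondrial ribosomal protein genes had a median log2 fold change of 0.03, with 1 of 78 higher and 0 lower at p of at most 0.05 before adjustment (limma-trend). Nuclear-encoded oxidative phosphorylation genes had a median of 0.06, with 12 of 87 higher and 0 lower, beside 2.27% higher and 9.29% lower of all genes tested, and none of either list passed the adjusted p. The 12 became 2 to 18 when 1 library was left out, where 1.45 to 2.35% of all genes were higher, and 33 after median-of-ratios rescaling, where 4.98% were. Their library order was not that of the ribosomal proteins. For oxidative phosphorylation the median deviation was 0.10 in Rag1-/- library 1 but 0.00 in Rag1-/- library 2, where it was 0.04 and 0.06 for the ribosomal subunits, and -0.01 in Rag1-/- library 3, where those were at -0.06 and -0.07. Genes outside the members with a reference transcript under 1000 bases had medians of 0.05, 0.01 and -0.02 in the same 3 libraries. No test was made of these differences in order.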

How the data were processed

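Total RNA of 6 brainstems was sequenced on an Illumina HiSeq, with library kit and strand not given in the sources used here. The authors aligned reads to mm10 (RefSeq Transcripts 83) with STAR 2.5.3a, counted them per gene in Partek Flow and deposited CPM, that is counts adjusted for library size, with 0.0001 as the lowest value of each column. Low values came out as a whole number of reads, within 0.1 reads, in 85.3 to 86.5% of cases, so reads were not recovered and no count test was run. No source used here states a gene filter before deposit.

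Members were taken by symbol, and members and lists were chosen with earlier results of these data known. Rpl32l and Rpl37rt were assigned as copies after the table was seen. Coordinates are those of the table on mm10, and 63 of 89 starts and 75 of 89 ends equalled RefSeq GRCm38.p6. All 89 symbols matched RefSeq. Coding lengths came from GENCODE vM21, and copies were found with BLAST 2.17.0.

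The main test was limma-trend (limma 3.58.1, R 4.3.3) on log2(CPM + 0.1), the study's own model, over the 16762 genes whose mean reached 0.1 CPM, with Benjamini-Hochberg adjustment. Fold changes are on the log2(CPM + 0.1) scale and understate those of low genes. The code was tested on simulated data. Sums, ratios and shares got no test. Members were named by smallest p (10), largest fold change (5 in each direction), highest, lowest and most variable levels (5 each), and as paralogs, X-linked, stalk or fusion genes. From each related list, the 2 genes with the smallest p were named. Rpl18, Rpl27 and Rps19 were named after their values were seen, as were copies, Tsc1 and Rps6ka2. Replicates are separate animals. The libraries were not treated as paired by replicate number. The correlations of same-numbered deviations were 0.09, -0.22 and -0.02, and those of the other pairs ran from -0.18 to 0.18. With 3 libraries a group, these values cannot show whether a pairing exists. Alternatives were other pseudocounts, filters and scalings, no trend, a replicate block, an Xist term (which leaves 1 WT library in the genotype contrast), leaving out each library and, added after seeing the data, summing copy rows.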

Additional observations from a re-analysis of the deposited data

How the results depend on the processing

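No alternative brought a member past an adjusted p of 0.05 in limma-trend. Of 208 comparisons of 13 members' fold changes with an alternative, 206 kept their direction and their side of that threshold, which says little, since all 13 had an adjusted p of at least 0.354 as reported. Sizes moved with the Xist term, which leaves WT library 3 as the only WT library behind the genotype value: Rpl29 went from 0.17 to 0.056, Rpl41 from 0.16 to 0.048, Rps26 from 0.11 to 0.036, Rpl19 from 0.13 to 0.068, Rpl17 from 0.12 to 0.056, Rpl36al from 0.11 to 0.051, Rps20 from 0.13 to 0.078, Rpl37 from -0.16 to -0.074, Rps27l from -0.10 to -0.00014, Rps29 from -0.10 to -0.15 and Rplp2 from -0.15 to -0.29. Of the 208, 2 reversed, both with copy rows summed, an alternative chosen after seeing the data: Rpl37 to 0.034 and Rpl34 to 0.056, where 0 members remained lower at an unadjusted p of at most 0.05. Counts at that p in the following are given as lower, then higher, and medians are log2 fold changes. Median-of-ratios rescaling gave 0 and 23 members, with medians of 0.085 for the large and 0.073 for the small subunit. It moved the summed CPM difference from 2.27 to 5.48%. For the lists it gave a median of 0.071 (0 and 1) for TOP mRNAs, 0.0046 (0 and 1) for biogenesis, -0.053 (1 and 1) for regulators, 0.078 (8 higher) for mitochondrial ribosomal proteins and 0.10 (33 higher) for oxidative phosphorylation. Of all genes in that fit, 4.15% were lower and 4.98% higher. Quantile normalization gave 0 and 18 members, with medians of 0.075 and 0.060, and for the same lists 0.047 (0 and 1), 0.0065 (0 and 1), -0.048 (1 and 1), 0.076 (8 higher) and 0.095 (29 higher). Of all genes in that fit, 3.82% were lower and 5.10% higher. The Xist term, with its WT arm of 1 library, left 1 member higher (1.14%, against 3.96% of all genes), a large-subunit median of 0.011, a small-subunit median of 0.0026 (from 0.028), a TOP median of 0.0031 (0 and 1), a biogenesis median of -0.050 (3 lower) and 2 mitochondrial ribosomal proteins higher. Without the trend, 1 and 1 members passed (1.14% each, against 7.67% lower and 2.12% higher of all genes), 0 TOP mRNAs and 0 biogenesis genes were lower, and 0 mitochondrial ribosomal and 4 oxidative phosphorylation genes were higher.

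With the replicate block, 1 member was lower and 1 higher (1.14% each, against 6.59% lower and 1.52% higher of all genes), 0 TOP mRNAs and 3 of the regulators (4 without the block) were lower, and 0 mitochondrial ribosomal and 6 oxidative phosphorylation genes were higher. The cause of this loss of calls was not tested.

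Leaving out each library in turn gave 0 to 2 members lower and 1 to 21 higher (1.14 to 23.9%, against 5.18 to 9.73% lower and 1.45 to 2.35% higher of all genes), large-subunit medians of 0.016 to 0.073 and small-subunit medians of 0.0020 to 0.073, and a difference in the sum of 0.863 to 4.91%. For the lists it gave medians of 0.0066 to 0.047 for TOP mRNAs (0 to 1 lower, 0 to 1 higher), -0.053 to -0.022 for biogenesis (0 to 2 lower), -0.11 to -0.064 for regulators (2 to 4 lower), 0.015 to 0.056 for mitochondrial ribosomal proteins (0 to 1 lower, 0 to 2 higher) and 0.023 to 0.084 for oxidative phosphorylation (0 to 1 lower, 2 to 18 higher). The large over small ratio difference (0.00664, WT SD 0.0121) was 0.000908 to 0.0129 when 1 library was left out, the highest without WT library 3. Without paralogs it was 0.00399, below the WT SD of 0.00853 on that measure. Without paralogs and without the highest member of each subunit it was 0.00846, above the WT SD of 0.00596 on that measure. Per coding kb, the share of Rpl22l1 moved to 19.0% and that of Rpl7l1 to 22.6% of the pair, by the lengths of the coding sequences. The cause of the other changes was not tested. At 3 animals a group, differences under 0.2 on the log2 scale, which are those of all tested members but Rpl3l (0.42 ± 0.46, SE), sit near the spread between libraries. How reads were divided between near-identical rows is not known. This leaves the values uncertain for 14 of the 16 members that have a copy row, Rpl29 and Rps23 excepted. The same holds for Rpl21, which has its match in BC004004.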
